A study of Mus musculus with 9 samples.

Results

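*Glis1*, *Glis2* and *Glis3*, the Gli-similar (GLIS) genes, were followed in 16042 nuclei of mouse spinal cholinergic neurons. They are 3 of the 21457 features measured and were picked by name, with earlier results of these data known: *Glis3* because its counts mark cluster S2, and *Glis1* because it leaned to the lumbar/sacral skeletal motor neurons (MNs). Those patterns are therefore given as descriptions with no test. The mice, of the strain Chat-IRES-Cre::Sun1-sfGFP, were 8 weeks old and in all groups had the same alleles, SUN-SfGFP:+/wt together with Chat-iCre:+/wt. Cre from the *Chat* locus switches on a GFP-tagged protein of the nuclear envelope for good, so a nucleus stays marked even where *Chat* has since gone down. The 12 mice formed 3 pools of 4, of both sexes (pool 1), males (pool 2) and females (pool 3), and each pool was cut into cervical, thoracic and lumbar/sacral cord, which gives 9 single-nucleus libraries, 3 for each region. A replicate is thus a pool of mice, the 3 libraries of a pool share their mice, and sex cannot be told apart from the pool. Cervical and thoracic libraries together are called rostral below.

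GLIS proteins are transcription factors with a run of C2H2 zinc fingers close in sequence to those of the Gli and Zic families, and they bind DNA elements much like those that Gli proteins, the effectors of Hedgehog signalling, recognise. *Glis2* is known for nephronophthisis, a kidney disease of the primary cilium, *Glis3* for its part in insulin-producing cells and in the thyroid, and *Glis1* for promoting reprogramming of somatic cells. Spinal cholinergic neurons comprise skeletal MNs, which innervate muscle (alpha MNs the force-producing fibres, gamma MNs the spindle fibres), visceral MNs, which drive autonomic ganglia, and interneurons.

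The values are corrected counts from a model. For each library, the nuclei of a cluster or class (10 or more) were added up and expressed as CPM, each gene's part of the summed total. The authors' labels divide the nuclei into 21 clusters, S1 to S3 (skeletal), V1 to V10 (visceral) and I1 to I8 (interneurons), and call S1 Type 3, S2 alpha and S3 gamma. Among the skeletal clusters most of the marker genes given here followed these labels. *Gpr149*, a marker of S1, was at 420 ± 28.0 CPM in S1, 95.8 ± 60.8 in S2 and 14.3 ± 7.96 in S3. *Esrrg*, listed for gamma MNs, did not separate S3 (2056 ± 304 CPM) from S1 (1931 ± 272 CPM). *Stk32a* and *Sv2b*, markers of alpha MNs, reached 352 ± 143 and 310 ± 88.5 CPM in S2 (SD, n = 9) and at most 14.9 CPM on average in S1 and S3. *Nrp2* was at 442 ± 45.4 CPM in S3 against 37.6 ± 26.5 in S2. *Rbfox3*, which encodes NeuN, was at 229 ± 90.5 CPM in S2, 64.3 ± 14.6 in S3 and 35.8 ± 8.34 in S1, and at 298 ± 27.4 in interneurons.

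By their Hox genes, which are expressed by level along the cord, the library labelled cervical pool 2 and the library labelled thoracic pool 2 went against their labels. *Hoxc5* was at 25.4 and 22.5 CPM in the other cervical libraries and 73.3 in the one labelled cervical pool 2, and at 85.3 and 84.2 in the other thoracic libraries and 13.9 in the one labelled thoracic pool 2. *Hoxa9*, looked at after the values were seen, gave 0.412 and 0.213 against 9.68 CPM and 9.35 and 9.04 against 0.507 CPM. The labels were kept, comparisons of cervical with thoracic cord are given with and without both libraries, and both lie in the rostral group when lumbar/sacral cord is compared with the rest. In the limma fits below each of the 3 regions had its own mean, so both libraries also enter the spread behind the lumbar/sacral tests. *Hoxd10* and *Hoxd11* were found in the lumbar/sacral libraries and were at 0 in all 6 rostral ones. The 71 nuclei labelled S2 in the library labelled cervical pool 2 also stood apart. They had 80.5 CPM of *Tns1*, 26.5 of *Prph* and 101 of *Stk32a* where the lowest of the other 8 S2 sums had 311, 141 and 172, and 1078 CPM of *Grm5* where the highest of the others had 167. Their 3 interneuron markers summed to 188 CPM (4.77 to 66.8 in the others) and their 2 visceral MN markers to 205 CPM (0 to 47.3 in the others). The part of these nuclei in the *Glis* results was not tested, so *Glis* levels in S2 are also given without that library. Without it *Stk32a*, *Sv2b* and *Rbfox3* averaged 383, 325 and 233 CPM in S2. Median totals ran from 4712 corrected counts per nucleus (lumbar/sacral pool 1) to 16127 (the library labelled cervical pool 2), and 33 barcode sequences occurred in more than 1 library, in 0.411% of the nuclei.

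In the GRCm38 annotation, *Glis1* (ENSMUSG00000034762) spans 200.471 kb of chromosome 4, chr4:107434591-107635061 on the plus strand, with 6 transcripts. *Glis2* (ENSMUSG00000014303) spans 30.212 kb of chromosome 16, chr16:4594713-4624924 on the plus strand, with 5 transcripts. *Glis3* (ENSMUSG00000052942) spans 421.227 kb of chromosome 19, chr19:28258851-28680077 on the minus strand, with 10 transcripts. Reads in introns were counted, so a long gene can collect more reads than a short one and levels are compared here within a gene only. On the opposite strand the end of *Glis2* overlaps *Pam16* (6.53 CPM in S2) and the start of *Glis3* overlaps the non-coding *D930032P07Rik* (1.14 CPM in S2). On the same strand the start of *Glis1* overlaps the microRNA gene *Gm24804*, and *4933413C19Rik*, a sense intronic transcript, lies within *Glis3*. Neither is among the features measured.

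**Figure D1:**
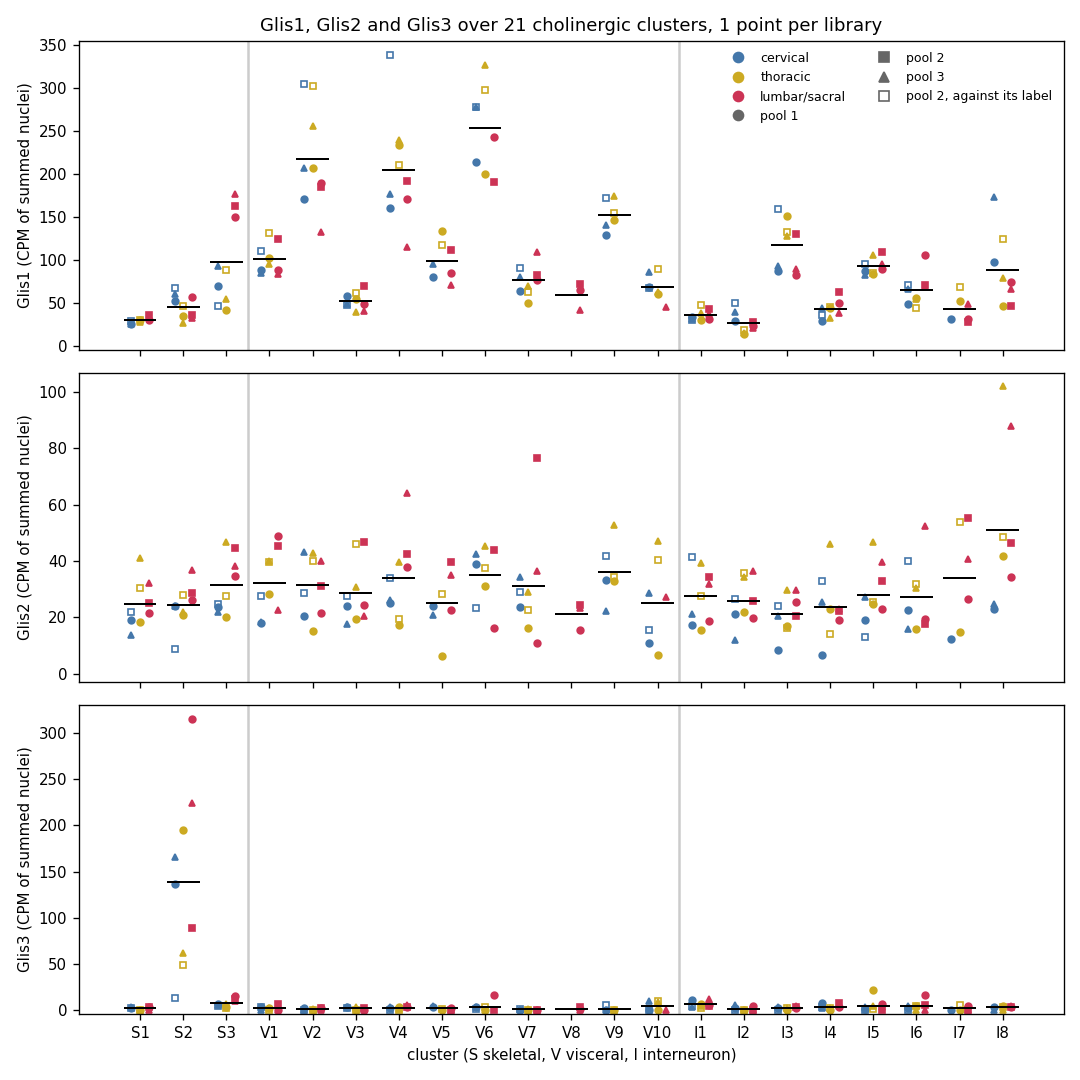
Level of *Glis1*, *Glis2* and *Glis3* (CPM of summed nuclei, vertical axes) in the 21 clusters, with 1 point per library of at least 10 nuclei, coloured by region and shaped by pool, and a black line at the mean. *Glis3* stands at a mean of 139 CPM in S2 and at most 6.90 elsewhere, *Glis1* runs from 253 in V6 down to 26.3 in I2, and *Glis2* stays between 21.1 and 51.1.

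*Glis3* was concentrated in S2, the alpha MNs. S2 held 8.01% of the nuclei but 82.0% of all *Glis3* counts, and 612 of its 1285 nuclei (47.6%) had at least 1. Outside S2 few nuclei had any: 92 of 2241 in S3 (4.11%), 17 of 1528 in S1 (1.11%), 109 of 5375 interneurons (2.03%) and 64 of 5613 visceral MNs (1.14%). The median total was 7494 corrected counts in S2, 7323 in S3, 7413 in S1, 6986 in interneurons and 7519 in visceral MNs. Corrected totals vary little within a library (SD 5.85 to 10.7% of the mean), so they do not show the sequencing depth of these groups. Within S2 the counts were graded, with 275 nuclei at 1 count, 251 at 2 to 4 and 86 at 5 or more, up to 17. In S1 no nucleus had more than 1.

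The mean level over libraries was 139 ± 96.8 CPM in S2 (SD, n = 9) and 155 ± 90.3 without the library labelled cervical pool 2 (n = 8). The next clusters were S3 with 6.90 ± 4.22, I1 with 5.77 ± 3.48 and I5 with 4.34 ± 6.49 CPM, and V7 was last with 0.208 ± 0.415 CPM from 2 of 557 nuclei. S2 was above S3 in 9 of 9 libraries, by 2.97 times in the library labelled cervical pool 2 and by 7.57 to 74.2 times in the others. From S3 downwards no cluster was above the next by more than the SD of their difference within libraries.

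The level in S2 varied widely between libraries. In the cervical libraries it was 136 (pool 1), 12.8 (pool 2) and 166 CPM (pool 3). In the thoracic libraries it was 195, 49.0 and 61.6 CPM. In the lumbar/sacral libraries it was 315, 88.2 and 224 CPM. Pool 2, the males, was lowest in each region and of the lumbar/sacral values those of pools 1 and 3 lay above every rostral value and that of pool 2 among them. The share of S2 nuclei with a *Glis3* count was also lowest in pool 2 in each region, at 7.04% in the library labelled cervical pool 2 and 27.6 to 27.8% in the other libraries of that pool, against 34.6 to 67.4% in pools 1 and 3. Thinning each nucleus to 4600 counts lowered the mean share from 42.0 ± 19.2% to 32.3 ± 17.3%.

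**Figure D2:**
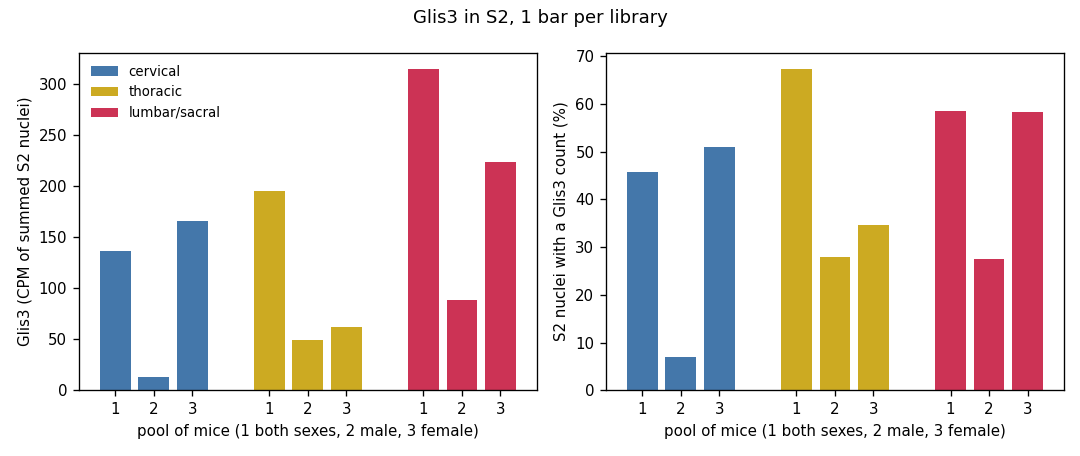
*Glis3* in S2, 1 bar per library, by region (colour) and pool of mice (horizontal axis). The left panel gives the level in CPM, from 12.8 to 315, and the right panel the percent of S2 nuclei with at least 1 count, from 7.04 to 67.4, where pool 2 is lowest in each region. The libraries labelled cervical and thoracic pool 2 went against their region labels.

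In the lumbar/sacral library of pool 2 other genes of S2 stood apart as well. There *Gulp1* and *C1qtnf4* stood at 243 and 131 CPM, against 51.1 to 105 and 17.0 to 28.9 CPM in the other lumbar/sacral libraries, and *Stk32a* at 172 against 417 and 463. These genes were among those listed for types of alpha MN. In the thoracic library labelled pool 2, *Gulp1* (54.3 CPM) and *C1qtnf4* (57.0 CPM) lay between the other thoracic libraries. *Gulp1* averaged 329 CPM in S1, 71.8 in S2 and 546 in S3, and *C1qtnf4* 199, 43.2 and 30.7. In S2 of lumbar/sacral pool 2 the S1 markers *Gpr149* and *Rreb1* summed to 348 CPM (195 and 133 in the other lumbar/sacral libraries). *Rbfox3*, *Sv2b* and *Stk32a* summed to 451 CPM there (1062 and 1039 in the others). Whether S2 of lumbar/sacral pool 2 held a different mix of alpha MNs, or nuclei nearer to other skeletal types, was not tested. It counted 58 nuclei against 159 and 242 in the other lumbar/sacral libraries.

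Between lumbar/sacral and rostral cord the S2 level of *Glis3* was 209 ± 114 against 104 ± 72.7 CPM (n = 3 and 6), with overlapping ranges. Without the library labelled cervical pool 2 the rostral mean was 122 ± 64.3 CPM. In S3, the gamma MNs, the small *Glis3* level was 14.4, 11.7 and 9.60 CPM in the lumbar/sacral libraries and 1.596 to 6.37 CPM in the rostral ones, so the groups did not overlap. Among 9841 genes that reached 10 CPM in 3 or more S3 sums, 3.66% had every lumbar/sacral library above every rostral one, and 4.29% had them outside the rostral range in either direction (2.23% in S2). *Glis3* reached 10 CPM in 2 S3 sums and is not among these genes. Over all skeletal MNs *Glis3* averaged 55.0 ± 33.9 CPM in lumbar/sacral and 34.1 ± 29.3 in rostral libraries, a log2 difference of 0.82 (SE 0.76) that came to 0.17 without the libraries labelled cervical and thoracic pool 2.

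S2 nuclei with and without a *Glis3* count differed in other genes listed for alpha MNs. This was read in the 7 libraries with at least 10 S2 nuclei with and 10 without a *Glis3* count, which left out the library labelled cervical pool 2 and thoracic pool 3. Such shares within libraries are a description, since nuclei are not replicates. *Chodl*, a marker of fast alpha MNs, was found in 35.1 ± 12.6% of nuclei with *Glis3* and 11.7 ± 7.81% of those without, a difference of 23.4 ± 10.0 percentage points (SD, n = 7), higher in 7 of 7 libraries. The difference ran from 4.25 points in lumbar/sacral pool 1 to 34.6 in lumbar/sacral pool 3. *Stk32a* (14.7 ± 13.9 points), *Sv2b* (9.12 ± 6.78) and *Cpne4* (7.46 ± 7.25) were also higher with *Glis3* in 7 of 7 libraries. Of 10692 genes found in at least 5% of S2 nuclei, 3.03% were higher with *Glis3* in all 7 libraries and 1.48% lower. *C1qtnf4* went the other way, with 10.3 ± 10.6% of nuclei with *Glis3* and 28.6 ± 17.6% of those without, lower by 18.3 ± 8.65 points and in 7 of 7 libraries. Though on the alpha list, it was highest in S1, at 199 ± 52.6 CPM against 43.2 ± 39.8 in S2 and 30.7 ± 9.17 in S3.

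The remaining genes of the alpha list were mixed. *Sv2a* and *Esrrb*, tied to slow alpha MNs, differed by -8.06 ± 10.2 and -6.66 ± 10.8 points, and were higher with *Glis3* in 2 and 3 of 7 libraries. *Mmp9* and *Calca*, tied to fast alpha MNs, differed by 1.52 ± 2.78 and 5.31 ± 5.76 points. *Rbfox3* (8.37 ± 11.97), *Prph* (3.70 ± 4.74), *Erbb4* (-2.35 ± 10.3), *Grm5* (-2.99 ± 10.7) and *Gulp1* (-7.97 ± 13.1) had no single direction over the libraries. Nor had the other members of the family, as *Glis1* differed by 3.72 ± 10.7 points and *Glis2* by 4.40 ± 5.79, each higher in 5 of 7 libraries. Median totals of nuclei with and without *Glis3* were close in each library, such as 7521 and 7485.5 corrected counts in cervical pool 1. Totals of corrected counts vary little within a library (SD 5.85 to 10.7% of the mean). They cannot show whether the sequencing depth of nuclei with and without *Glis3* was alike. Outside the list, and chosen after the values were seen, the largest differences were those of *Gm14697* (31.3 ± 13.8 points), *Plxdc2* (28.4 ± 13.6) and *Rspo2* (25.01 ± 6.96), and of *Gabrg3* (-25.2 ± 10.2), *Kirrel3* (-24.5 ± 15.0) and *Rreb1* (-24.2 ± 12.8). *Rreb1* is a marker of S1, where it stood at 252 ± 32.7 CPM against 96.0 ± 44.3 in S2. Whether S2 nuclei without *Glis3* were nearer to S1 was not tested.

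**Figure D3:**
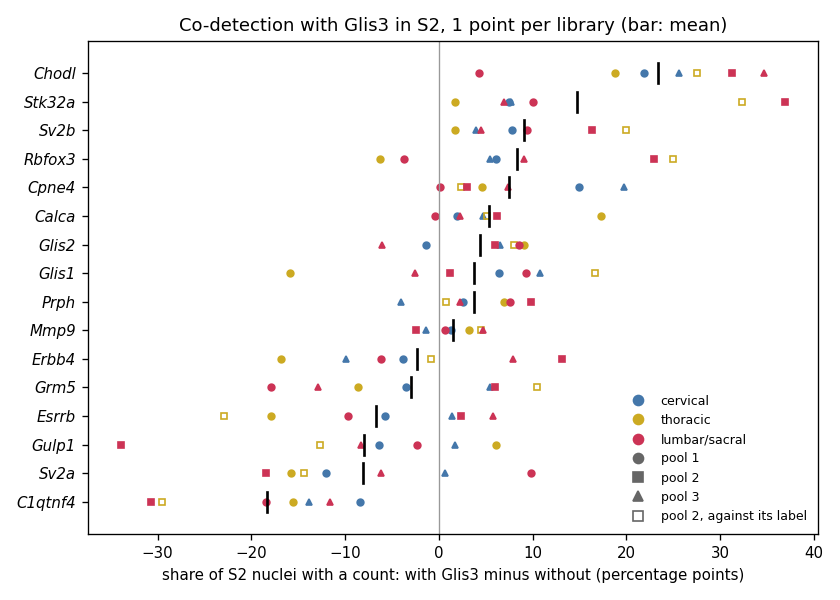
Difference in the share of S2 nuclei with a count of each gene between nuclei with and without *Glis3* (percentage points, horizontal axis), with 1 point per library for 7 libraries and a black bar at the mean. *Chodl* is highest with a mean of 23.4 points, *C1qtnf4* lowest with -18.3, and both have all points on one side of 0.

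The genes most like *Glis3* over the 21 clusters, by Pearson r of the mean log2(CPM + 5) among 14465 genes, were *BC055402* (r = 0.95), *Lgi4* (0.95), *2310001H17Rik* (0.94), *Tcea3* (0.94) and *Mrvi1* (0.94). Each had its highest level in S2, from 10.3 CPM for *BC055402* to 79.9 for *Mrvi1*, and 3.63 CPM or less in the next cluster. These r rest on S2 alone, since the Spearman rho of the same genes was 0.11 to 0.49.

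*Glis1* was found in every cluster and was highest in visceral MNs. V6 led with 253 ± 49.2 CPM (SD, n = 8), followed by V2 with 217 ± 58.7 (n = 9) and V4 with 204 ± 63.4 (n = 9). These 3 neighbours did not differ by more than the SD of their difference within libraries. V9, at 152 ± 17.8 CPM in the 6 rostral libraries, was below V4 in 6 of 6 libraries, and I3, at 117 ± 29.3 CPM, was below V9 in 5 of 6. V1, V5, S3, I5, I8, V7 and V10 followed from 101 down to 68.5 CPM without a step beyond that SD. Farther down stood I6 (64.7 ± 18.1), V8 (59.7 ± 15.9, n = 3), V3 (52.1 ± 9.76), S2 (45.7 ± 14.2, or 42.97 ± 12.4 without the library labelled cervical pool 2), I7 (43.2 ± 16.1), I4 (42.3 ± 10.1), I1 (35.8 ± 6.20), S1 (29.8 ± 3.44) and I2 (26.3 ± 11.9). Among these, I6 was above V8 in the 3 libraries they share by a mean just over the SD (21.8 ± 21.5 CPM, higher in 2 of 3), and I1 was above S1 by 6.01 ± 5.60 CPM (8 of 9 libraries).

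Visceral MNs, 34.99% of the nuclei, held 57.3% of the *Glis1* counts. At least 1 count was seen in 85.2% of V6 nuclei (median total 8599.5), 78.2% of V4 and 76.5% of V2, against 19.8% of S1 nuclei (median total 7413). Shares moved with depth, and thinning each nucleus to 4600 counts took the mean share from 87.0 ± 6.71% to 63.9 ± 5.93% in V6 and from 45.0 ± 11.3% to 31.1 ± 15.4% in S3. In S2 of the library labelled cervical pool 2 the share was 85.9% as deposited and 25.4% after thinning.

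The genes most like *Glis1* over the clusters were *Gm19412* (r = 0.83, highest in V6 at 6.70 CPM), *Gm26532* (0.83, V6, 22.9 CPM), *Ppp2r1b* (0.82, V2, 22.9 CPM), *Herpud2* (0.81, V2, 56.8 CPM) and *Pprc1* (0.79, V6, 27.0 CPM). Between the members of the family r was 0.44 for *Glis1* with *Glis2*, -0.21 for *Glis1* with *Glis3* and -0.17 for *Glis2* with *Glis3*, over clusters that share libraries.

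In skeletal MNs *Glis1* stood at 94.1, 109 and 89.9 CPM in the lumbar/sacral libraries. It was at 51.7, 50.7 and 63.0 CPM in those labelled cervical and at 35.97, 60.7 and 41.2 CPM in those labelled thoracic. All lumbar/sacral values lay above all rostral ones, and the means were 97.5 ± 9.82 and 50.5 ± 10.6 CPM. The log2 difference of 0.90 (SE 0.16) had chosen the gene and carries no test. It is set against a median of 0.12 over all genes in the same comparison, a shift that scaling by the median of ratios took to -0.01, and it was 0.98 without the libraries labelled cervical and thoracic pool 2.

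The difference lay mostly in S3, the gamma MNs. There *Glis1* was at 150, 163 and 177 CPM in lumbar/sacral cord and at 41.3 to 92.6 CPM in rostral cord, 2.498 times higher by the means of 163 ± 13.3 and 65.4 ± 21.7 CPM, a log2 difference of 1.31. In S1 the lumbar/sacral values of 30.6 to 35.6 CPM were just above the rostral ones of 25.01 to 30.3 CPM, by 1.19 times. In S2 they were 56.5, 35.8 and 32.6 CPM, inside the rostral range of 26.4 to 67.7 CPM, or 26.4 to 59.8 CPM without the library labelled cervical pool 2. Every lumbar/sacral library was above every rostral one for 3.66% of genes in S3, 2.29% in S1 and 1.47% in S2. Counting both directions these shares were 4.29%, 2.97% and 2.23%. Giving S1, S2 and S3 equal weight took the log2 difference of the class from 0.90 to 0.46. That value is the mean of the differences within S1 (0.22), S2 (-0.16) and S3 (1.31), so it does not isolate the mix of clusters. The share of S3 among skeletal MNs was 48.6 ± 8.999% in lumbar/sacral and 42.1 ± 7.12% in rostral libraries, and its part was not tested. These values come from the contrast that chose the gene and are descriptions.

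**Figure D4:**
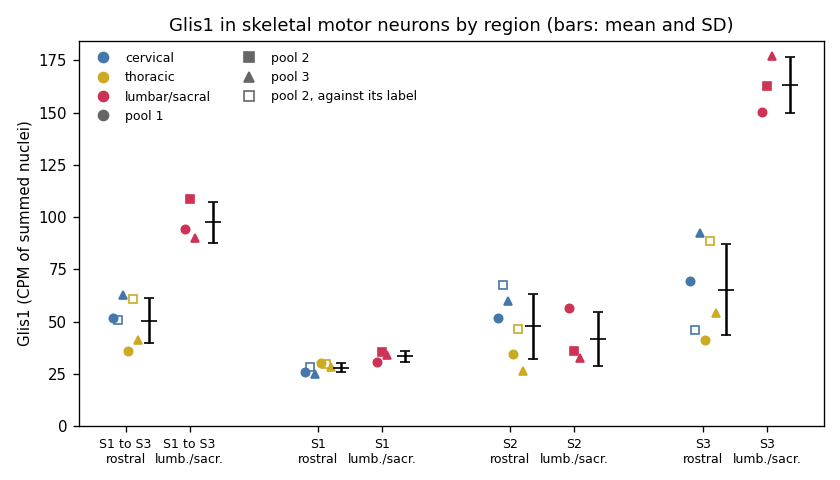
*Glis1* (CPM of summed nuclei, vertical axis) in all skeletal MNs and in S1, S2 and S3, rostral against lumbar/sacral, with 1 point per library and black bars for mean and SD. In S3 the lumbar/sacral points sit between 150 and 177 and the rostral ones between 41.3 and 92.6, while in S2 the lumbar/sacral points lie inside the rostral range.

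In visceral MNs *Glis1* was at 104, 115 and 75.6 CPM in lumbar/sacral libraries and at 115 to 183 CPM in rostral ones, and the ranges just overlapped. The means of 98.2 ± 20.4 and 148 ± 28.0 CPM gave a log2 difference of -0.57 (SE 0.18), which did not pass the test (limma, adjusted p = 0.150). Over 15 alternatives the adjusted p, or the exact p where clusters had equal weight, ran from 0.0744 to 0.519. In the same comparison 4.27% of 10031 genes were called at an adjusted p under 0.05 (2.32% higher and 1.94% lower in lumbar/sacral cord), and neither *Glis1* nor *Glis2* was among them. With the pool as a block 737 genes were called in place of 428, and *Glis1* still had an adjusted p of 0.0785.

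The cluster mix of visceral MNs differed between the regions. V8, with 59.7 CPM of *Glis1*, made up 30.5 ± 4.14% of lumbar/sacral visceral nuclei and 0.0861 ± 0.134% of rostral ones. V6, with the most *Glis1*, made up 2.00 ± 0.193% and 12.6 ± 2.41%, and V9 0.300 ± 0.203% and 6.17 ± 1.87%. Within clusters the lumbar/sacral and rostral means were 169 ± 32.0 and 241 ± 55.1 CPM in V2, 159 ± 39.9 and 226 ± 62.9 in V4, 217 ± 37.0 (n = 2) and 265 ± 49.1 in V6, 98.7 ± 22.6 and 102 ± 17.1 in V1, and 89.4 ± 17.4 and 69.5 ± 14.4 in V7, with overlapping ranges in each. Of the 7 clusters compared, *Glis1* had a lower lumbar/sacral mean on the log2 scale in 5 and a higher one in 2. Equal weight was given to the 5 visceral clusters with at least 10 nuclei in every library, V1 to V4 and V7. The log2 difference was then -0.13 (exact permutation test over libraries, two-sided, p = 0.345). V6, with the most *Glis1*, and V5, V8, V9 and V10 were left out of this value.

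**Figure D5:**
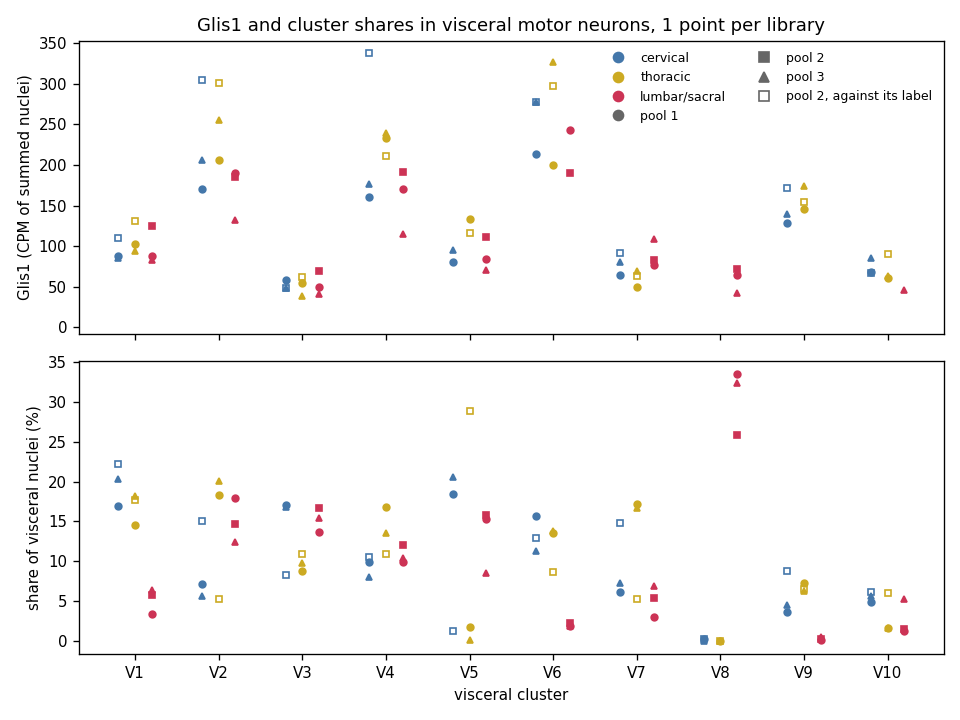
*Glis1* (CPM of summed nuclei, top) and the share of visceral nuclei (percent, bottom) in V1 to V10, with 1 point per library, coloured by region and shaped by pool. Lumbar/sacral libraries hold 25.8 to 33.4% V8, where *Glis1* is at 41.8 to 72.3 CPM, while V6 and V9, with means of 253 and 152 CPM, are found mainly in rostral libraries.

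In cholinergic interneurons *Glis1* differed little, with 52.6, 62.7 and 52.7 CPM in lumbar/sacral and 55.4 to 69.9 CPM in rostral libraries. The log2 difference was -0.11 (SE 0.10, limma adjusted p = 0.9997), where 0.051% of 9805 genes were called (0.0204% higher and 0.0306% lower), or 5: *Hoxd11* and *Rxfp2* higher and *Sntg2*, *Gldn* and *Col8a1* lower in lumbar/sacral cord, named here after their values were seen. With the pool as a block 44 were called, *Glis1* and *Glis2* not among them. In skeletal MNs 0.01% of 9999 genes were called, which is *Hoxd11* alone, at 32.8 ± 5.15 CPM in lumbar/sacral libraries and 0 in all rostral ones, and 4 with the pool as a block (*Hoxd11*, *Mctp2* and *Hgf* higher and *Epha6* lower).

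*Glis2* was found in every cluster, with its highest mean in I8. The mean level ran from 51.1 ± 28.8 CPM in I8 (n = 8), through 36.3 ± 10.3 in V9, 34.9 ± 10.5 in V6 and 34.0 ± 14.4 in V4, to 21.3 ± 6.88 in I3 and 21.1 ± 4.87 in V8. In S2 it was 24.4 ± 7.49 CPM, and 26.3 ± 5.03 without the library labelled cervical pool 2, which stood at 8.83. No cluster was above the next by more than the SD of their difference within libraries. The counts followed the number of nuclei, with 30.9% in skeletal MNs (31.5% of nuclei), 39.2% in visceral MNs (34.99%) and 29.9% in interneurons (33.5%). I8 values were 23.1 and 24.7 CPM in cervical pools 1 and 3, 42.0, 48.5 and 102 in thoracic libraries and 34.5, 46.4 and 87.9 in lumbar/sacral ones, so that the highest values were those of pool 3 in thoracic and in lumbar/sacral cord, the first from 10 nuclei with 9 counts. The genes most like it over clusters, *Glp2r* (r = 0.82), *Bax* (0.81), *Gas7* (0.81), *Dnajc2* (0.79) and *Fhit* (0.78), were all highest in I8. Their Spearman rho was lower, from 0.57 for *Glp2r* to 0.76 for *Bax*. *Glp2r* was at 156 CPM in I8 and 36.5 in the next cluster, and *Gas7* at 365 and 104, so their r leans on I8.

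Between regions *Glis2* was at 28.9, 36.7 and 36.2 CPM in lumbar/sacral skeletal MNs and 17.7 to 41.7 CPM in rostral ones, a log2 difference of 0.41 (SE 0.19) given as a description. It differed by 0.11 (SE 0.20, limma adjusted p = 0.928) in visceral MNs and by 0.17 (SE 0.23, limma adjusted p = 0.9997) in interneurons. *Glis3* in visceral MNs (1.45 ± 0.659 CPM) and interneurons (3.42 ± 1.41 CPM) was below the level needed for a test, and was not tested there.

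Cervical and thoracic cord did not differ in any member by the test, and limma called 0 genes at all in each class (607 at an unadjusted p under 0.05 in skeletal MNs, 160 in visceral MNs, 189 in interneurons), which is 0% of those tested. As labelled, the log2 difference of cervical from thoracic in skeletal MNs was 0.26 for *Glis1* (adjusted p = 0.721), -0.44 for *Glis2* (0.719) and 0.55 for *Glis3* (0.814). In visceral MNs it was -0.20 for *Glis1* and -0.19 for *Glis2* (both 0.945), and in interneurons 0.03 (0.956) and -0.31 (0.937). Without the libraries labelled cervical and thoracic pool 2 the skeletal values were 0.51 (adjusted p = 0.784), -0.38 (0.784) and 0.80 (0.795), the visceral ones -0.45 (0.813) and -0.19 (0.874), and the interneuron ones -0.02 (0.951) and -0.50 (0.738). In that setting *Hoxc5* was called in skeletal MNs, lower in cervical cord by 2.31 on the log2 scale.

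Related and pathway genes were read from 4 lists, for which the share of all genes called is 4.27% in visceral MNs, 0.051% in interneurons and 0.01% in skeletal MNs for lumbar/sacral against rostral cord, and 0% for cervical against thoracic cord in each class. With 5 to 16 genes tested of a list, few or no calls are what such shares give for any genes. Of 8 further Gli and Zic genes, 7 were measured and none reached the level for a test, with *Gli2* highest at 2.58 ± 2.30 CPM in interneurons. Of 18 genes of the Hedgehog pathway, 17 were measured and 5 to 8 tested in a class. 1 of the 8 tested in visceral MNs was called, *Hhip*, which encodes a Hedgehog-binding inhibitor, and it was lower in lumbar/sacral visceral MNs with 1.59 ± 0.922 against 20.2 ± 4.99 CPM (log2 difference -1.92, SE 0.20, limma adjusted p = 0.00103). These are values of the whole class, whose mix of clusters differed between the regions, and the part of that mix was not tested. The receptor *Ptch1* (0.17, adjusted p = 0.791) and *Sufu*, a repressor that binds Gli proteins (0.17, adjusted p = 0.706), did not pass in the same comparison. The median log2 difference of the 8 genes there was 0.04, beside 0.06 over all genes. Of 10 genes listed as partners or ubiquitin ligases of GLIS proteins 8 were tested in each class and 0 called, and of 17 cilium and nephronophthisis genes 15 or 16 were tested and 0 called in all 6 comparisons. The smallest adjusted p there in visceral MNs, lumbar/sacral against rostral, was that of *Arl13b*, a GTPase of the ciliary membrane (-0.39, adjusted p = 0.171).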

How the data were processed

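Nuclei were sorted as GFP+/DRAQ5+ from spinal cord, and libraries were made with 10x Chromium 3' chemistry. For alignment the authors used Cell Ranger 3.1.0 and a reference of unspliced transcripts (GRCm38). The paper states that each barcoded region was normalised separately, with SCTransform in Seurat. Deposited are corrected counts, a score in whole numbers that is not a count of molecules. Library medians of 4712 to 16127 are totals of corrected counts, so depth behind a value is that of corrected counts. They were 7087, 16127 and 10255.5 in the cervical libraries of pools 1, 2 and 3, so the libraries of a region did not share a common total. Labels for region, class and cluster are the authors'. Doublets were not searched for here.

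Here the values were summed per library and cluster or class (at least 10 nuclei), scaled to CPM and fitted with limma 3.58.1 (R 4.3.3) with a trend on log2(CPM + 5), keeping genes that reached 10 CPM in 3 or more sums. The threshold for a call was a Benjamini-Hochberg adjusted p of 0.05. The region comparisons used 9 sums each, lumbar/sacral against the mean of cervical and thoracic, and cervical against thoracic, with no term for the pool. On simulated data for the 3 lumbar/sacral comparisons (9500 to 9744 genes) 61 to 66% of genes changed by 1 on the log2 scale and 90 to 94% of those changed by 2 were recovered, and false calls made up 1.86% (visceral MNs), 5.03% (skeletal MNs) and 9.09% (interneurons) of the calls. The simulated libraries varied independently, with no pool effect, so these rates do not cover libraries that share mice. Same-numbered libraries come from the same mice per the study's methods, and their deviations from the region means correlated with a median r of 0.65 to 0.75 over 9 pairs a class (lowest -0.22). Shares were thinned with seed 1 in Python 3.11.15 (numpy 2.4.6, pandas 2.3.3), which left out 8.63% of nuclei. These were 44.1% of the nuclei of lumbar/sacral pool 1 and 13.6% of those of lumbar/sacral pool 3, with none from the other libraries. A limma p thus measures the spread between libraries, which for the 6 rostral ones come from 3 pools.

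Genes named by rule are the members, the 5 most like each over clusters, called genes of the pathway lists and the alpha list. Marker and Hox genes check the labels, and other names (uncalled pathway genes, co-detection extremes, called genes outside the lists) were chosen after their values were seen. Members and lists were chosen with earlier results of these data known. Alternatives were a pseudocount of 1, no filter, median-of-ratios scaling, the pool as a block, equal cluster weight, sums of at least 25 nuclei, and leaving out libraries; leaving out both libraries that went against their labels, and the alternatives for the difference between classes, were chosen after seeing the data.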

Additional observations from a re-analysis of the deposited data

Results flagged for a closer look

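The lumbar/sacral difference of *Glis1* was larger in visceral MNs than in cholinergic interneurons by a test over all libraries, and not by one within pools. It was -0.57 on the log2 scale in visceral MNs and -0.11 in interneurons of the same libraries, a difference of -0.46 (two-sided exact permutation test of the visceral to interneuron ratio over 84 groupings of the libraries, p = 0.0238, adjusted p = 0.0476 over the tests of *Glis1* and *Glis2*, where 0.0119 is the smallest p possible). These groupings treat the 9 libraries as exchangeable, but the 3 of a pool share mice. With the regions permuted within pools (27 arrangements) the exact p was 0.0741 and the adjusted p 0.148, so the difference did not pass, and no adjusted p under 0.0741 was possible there. Both tests were added after the values were seen. The log2 ratio of visceral to interneuron level was 0.92, 0.83 and 0.48 in the lumbar/sacral libraries and 0.96 to 1.48 in the rostral ones, lower in 3 of 3 than in any rostral library. For *Glis2* the difference was -0.06 (exact p = 0.702, adjusted p = 0.702). With equal weight for the clusters with at least 10 nuclei in every library the difference for *Glis1* was -0.24 (exact p = 0.0119). It was made up of -0.13 in visceral MNs and 0.11 in interneurons, 2 small changes of opposite sign. That p treats the libraries as exchangeable, and none within pools is given for this setting. Without lumbar/sacral pool 3 the difference for *Glis1* was -0.33 (exact p = 0.107), and without the libraries labelled cervical and thoracic pool 2 it was -0.44 (exact p = 0.0857). The mix of visceral clusters, with V8 found almost only in lumbar/sacral cord, moved with this result, and its part was not tested.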

How the results depend on the processing

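Over the alternatives run, no *Glis* gene crossed the threshold in any region comparison in which it was tested. The skeletal lumbar/sacral count of 1 called gene was 0 with a pseudocount of 1 CPM, 12 with no filter, 4 with the pool as a replicate block and 0 to 1 on leaving out a library, with 0 without any one of the lumbar/sacral libraries. The interneuron count of 5 was 2 with a pseudocount of 1 CPM, 3 with median-of-ratios scaling, 44 with the replicate block, 1 to 9 on leaving out a library (9 without the library labelled thoracic pool 2, 5 without that labelled cervical pool 2 and 1 without any of the others) and 13 without the libraries labelled cervical and thoracic pool 2. The visceral count of 428 was 737 with the replicate block and 160 to 471 on leaving out a library, lowest without lumbar/sacral pool 1, and 176, 219 and 267 without lumbar/sacral pool 2, lumbar/sacral pool 3 or cervical pool 1. With no filter 66.3% of the visceral calls were higher in lumbar/sacral cord, against 54.4%. The skeletal cervical against thoracic count of 0 became 1 without the libraries labelled cervical and thoracic pool 2. The replicate block changed no call of a member in a region comparison, but with regions permuted within pools the *Glis1* difference between visceral MNs and interneurons (-0.46) lost the threshold (exact p = 0.0741).

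Leaving out a pool gave 100 to 183 CPM for *Glis3* in S2, 237 to 274 for *Glis1* in V6, 93.1 to 104 for *Glis1* in S3 and 38.9 to 61.9 for *Glis2* in I8. Thinning moved the *Glis1* shares of V6 to 63.9% and of S3 to 31.1%, and equal cluster weight moved the skeletal *Glis1* difference to 0.46. Small differences turned sign. On leaving out a library, *Glis2* ran from -0.0283 (without lumbar/sacral pool 2) to 0.297 in visceral MNs and from -0.00240 (without lumbar/sacral pool 3) to 0.338 in interneurons, lumbar/sacral against rostral. With equal cluster weight *Glis1* in interneurons was at 0.11. *Glis1* of cervical against thoracic interneurons ran from -0.0596 (without cervical pool 2) to 0.0955, with -0.00354 without thoracic pool 1, and was -0.0247 without the libraries labelled cervical and thoracic pool 2. The cause was not tested.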
